A study of Gallus gallus with 14 samples.

Results

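Chick retinas whose library titles end in L were compared with those whose titles end in R. Of the 14 libraries of the series, 6 carry L and 8 carry R, and no library was left over. The labels do not spell the letters out; they are read here as the left and the right eye. The L group held 3 lens-wearing retinas (title numbers 2, 4 and 13) and 3 control retinas (17, 19 and 22), and the R group 4 lens-wearing retinas (1, 3, 12 and 14) and 4 control retinas (10, 18, 21 and 23). All birds were wild type White Leghorn chicks, 3 days old. Lens-wearing eyes had a lens of -10 dioptres mounted in front of them for 1 day, and the labels say nothing of how control eyes were handled. Ribosomal RNA was depleted from total retinal RNA and stranded libraries were made. No title number occurs with both letters, so no L retina is paired by its label with an R retina of the same bird, and the labels do not say whether the libraries came from separate birds. P-values therefore measure the spread between these libraries, which may partly be technical. Sex is not in the labels. The sum of W-linked genes was 604 to 655 CPM in 7 libraries, treated as female (3 L and 4 R), and 1.54 to 3.11 CPM in the other 7, treated as male (3 L and 4 R).

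In vertebrates the left and right sides of the body are set apart early in the embryo. A Nodal signal on the left side then switches on a cascade that places the heart and gut. Cilia act ahead of that signal in many vertebrates, but not in all. The paired eyes form as mirror images, and inside each eye other gradients mark nasal, temporal, dorsal and ventral retina. In birds the optic nerve fibres cross almost completely, so each eye feeds the opposite side of the brain, and in chicks the eyes are used for partly different tasks. In embryos turned in the shell, the right eye faces the light. In studies of defocus the fellow eye often serves as the control, which takes for granted that left and right retinas are alike at the start.

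The deposited values are CPM (the reads of a gene per 1000000 reads of the library) and are not divided by gene length. Differences are on the log2(CPM + 1) scale, L minus R, with lens wear and sex as covariates. The read total behind the values was 35.0 to 43.5 M reads (M, 1000000) in L libraries and 27.7 to 49.3 M in R libraries. It averaged 38.2 ± 3.20 M in L and 37.7 ± 6.36 M in R (SD, n = 6 and 8; exact permutation test, two-sided, p = 0.868). The share of noncoding RNA in the summed CPM of the table's genes was 6.61 ± 0.298% in L and 6.70 ± 0.709% in R (exact permutation p = 0.784). The number of genes at 1 CPM or more was 10964 in L and 10941 in R on average (exact permutation p = 0.739). Adjusted over the 4 library measures, each p was 0.868. Lens libraries 1 to 4 stood apart from lens libraries 12 to 14 in gene expression, and both letters occur in each set.

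No gene differed between L and R retinas past the threshold. Of 11005 genes tested, 0 passed (0% called; limma, smallest adjusted p = 1.00). An exact rank-sum test also called 0, but its smallest possible p with 6 against 8 libraries is 0.000666. No single gene could pass that test after adjustment over all genes, so its 0 calls add little. The unadjusted p was under 0.05 for 189 genes (1.72%), against the 5% that the threshold itself would give for independent genes, and the rank-sum test gave 152. Of the 189, 102 were higher and 87 lower in L (0.927% and 0.791% of the genes tested); after quantile normalization the split was 91 and 117. In the same fit, lens wear gave 0 calls and 1497 genes (13.6%) at an unadjusted p under 0.05. Sex gave 488 calls (4.43%), 126 higher and 362 lower in female retinas. Sex was read from W-linked genes of these same values, so calls among those genes were set in advance. The table holds 48 W-linked and 879 Z-linked genes, and the 488 calls are not split by chromosome here. In 0 of 11005 genes did the 6 L values lie wholly above or wholly below the 8 R values. Without lens library 4 (L) 306 genes had an unadjusted p under 0.05, and without lens library 13 (L) 355, again with 0 called.

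The precision of the comparison can be read from its intervals. The median gene differed by 0.0437 in size on the log2 scale between L and R, against 0.0796 for lens wear and 0.0735 for sex, and the median standard error was 0.0828. For 10827 of the 11005 genes (98.4%) the 95% interval of the L minus R difference lay inside a 1.5-fold change of CPM + 1 in either direction, a scale that understates the change of low genes, and for 9076 (82.5%) inside a 1.25-fold change. Among the 5384 genes that averaged 10 CPM or more, the intervals of 5351 (99.4%) lay inside 1.5-fold. The letter accounted for a median of 2.01% of a gene's variance, lens wear for 7.11% and sex for 5.94%. These shares were not set against the share that an arbitrary label of the libraries would take. The first principal component, with 36.6% of the variance, had 0.000367% of its own variance shared with the letter, and the second 0.284%. The first split the libraries by sex, which was itself read from W-linked genes of these data. Females stood at -17.5 to -11.3 and males at 9.89 to 15.3. Each letter holds equal numbers of both sexes, so its small share was set by the design and says nothing of the letter. The fifth shared 8.62% with the letter. After removal of lens wear and sex, the third component, with 8.79% of the variance, shared 9.83%.

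**Figure D1:**
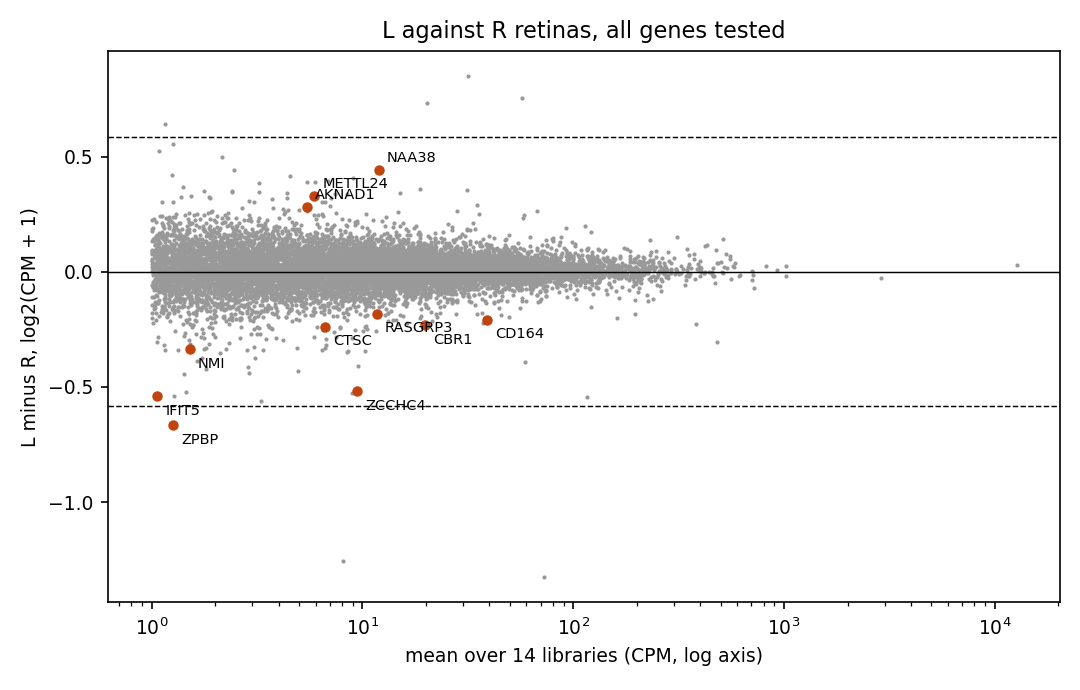
Difference between L and R retinas on the log2(CPM + 1) scale for each of the 11005 genes tested, against the gene's mean over the 14 libraries in CPM on a log axis. Dashed lines mark a 1.5-fold difference in CPM + 1, and orange points are the leading genes that carry a symbol. Most genes lie close to 0, and 7 genes lie past a dashed line.

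The 15 genes of smallest p are given as values, since none passed. Of them 10 had lower means in L and 5 had higher means. ZCCHC4, which methylates the RNA of the large ribosomal subunit, lies on chromosome 4 (73495901 to 73507545, minus strand, GRCg6a). Its level was 9.10, 9.63 and 5.87 CPM in lens L retinas (numbers 2, 4 and 13) and 9.58, 5.18 and 5.71 CPM in control L retinas (17, 19 and 22). In R it was 12.5, 10.6, 10.7 and 11.1 CPM with a lens (1, 3, 12 and 14) and 9.52, 10.6, 10.6 and 11.4 CPM in controls (10, 18, 21 and 23). In L the values of numbers 2, 4 and 17 came close to R, and those of 13, 19 and 22, of both treatments and both sexes, lay well below it. The means were 7.51 ± 2.13 CPM in L and 10.9 ± 0.843 CPM in R, a log2 difference of -0.52 (95% interval -0.77 to -0.26, unadjusted p = 0.000508, adjusted p = 1.00). CD164, a sialomucin of the cell surface, was 32.0, 35.4 and 40.5 CPM in L and 37.8, 41.9 and 44.2 CPM in R (lowest, median and highest), a log2 difference of -0.21 (SE 0.0529). All 6 L values of CD164 lay below the R median, but the ranges overlapped.

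The other leading genes with lower means in L are given in turn. NMI, whose product binds MYC and STAT proteins and is induced by interferon, had 0.942, 1.19 and 1.43 CPM in L and 1.38, 1.84 and 2.17 CPM in R (lowest, median and highest; log2 difference -0.34). IFIT5, an RNA-binding protein that interferon induces, had 0.184, 0.628 and 1.04 CPM in L and 0.595, 1.29 and 2.53 CPM in R (-0.54). CTSC, the lysosomal protease cathepsin C, averaged 5.95 ± 1.01 CPM in L and 7.14 ± 0.498 CPM in R (-0.24). In NMI and IFIT5 all 6 L values lay below the R median, and in CTSC 5 of 6 did. RASGRP3, which activates Ras and Rap, averaged 10.8 ± 0.576 CPM in L and 12.4 ± 1.11 CPM in R (-0.18). CBR1, a carbonyl reductase, averaged 18.04 ± 3.39 CPM in L and 21.2 ± 2.77 CPM in R (-0.23), and ZPBP, known from sperm, 0.720 ± 0.476 CPM in L and 1.68 ± 0.554 CPM in R (-0.66). LOC112532705 stood at -0.52 and LOC101748722 at -0.33.

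The leading genes with higher means in L were fewer. NAA38, an accessory subunit of the NatC complex that acetylates protein ends, lies on chromosome 19 (79832 to 86571, plus strand, GRCg6a). It had 12.6, 12.9 and 14.6 CPM in lens L retinas and 14.2, 17.7 and 12.9 CPM in control L retinas. In R it had 8.56, 7.94, 12.9 and 13.1 CPM in lens retinas and 8.08, 9.61, 9.80 and 12.1 CPM in control retinas. R libraries 12 and 14 lay within the L range, and the other 6 lay below every L value. The log2 difference was 0.44 (95% interval 0.19 to 0.70, unadjusted p = 0.00209). METTL24, a methyltransferase-like gene, averaged 6.79 ± 0.947 CPM in L and 5.24 ± 1.08 CPM in R (0.33), and AKNAD1 6.18 ± 0.714 CPM in L and 4.92 ± 0.565 CPM in R (0.28). LOC107054488 stood at 0.52 and LOC100859067 at 0.55. When the 2 sets of lens numbers were fitted as separate levels in place of lens wear, 335 genes had an unadjusted p under 0.05. The smallest adjusted p was then 0.104, for LOC112532705, and that of NAA38 and ZCCHC4 was 0.324.

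**Figure D2:**
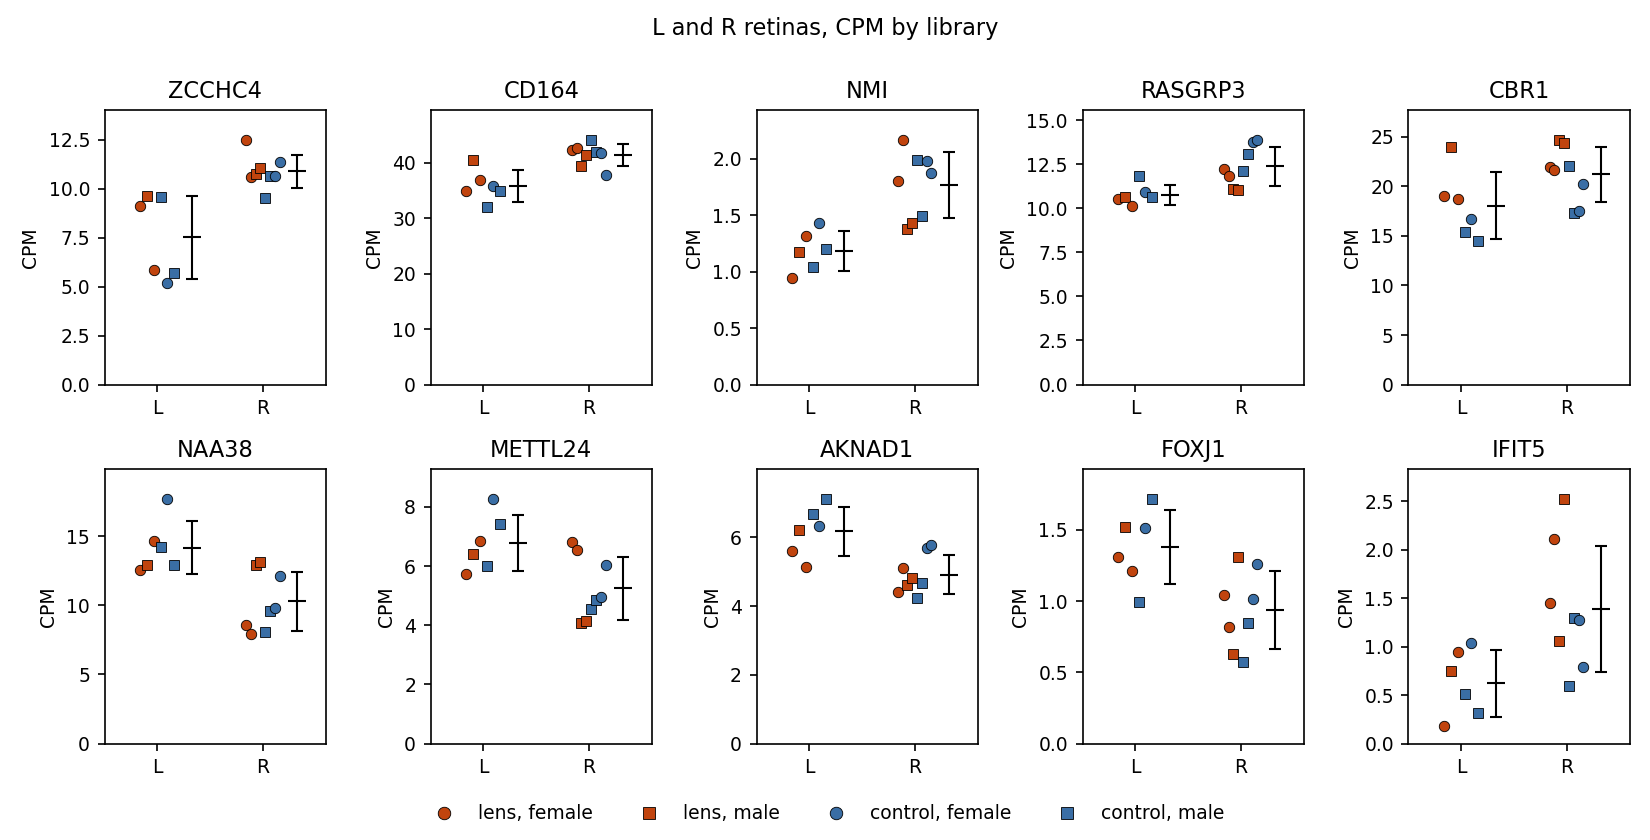
CPM in each library of 10 genes with small unadjusted p-values, with the 6 L retinas left and the 8 R retinas right in each panel. Orange marks lens wear, blue control, circles female and squares male; bars are the mean ± SD. In every panel the L and R values overlap, and ZCCHC4 averages 7.51 CPM in L and 10.9 CPM in R.

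None of the tested genes of the embryonic left-right pathway, which sets body sidedness, passed between L and R retinas. Of 36 listed genes, 25 were in the table and 14 were tested. The median difference of the 14 was 0.053, against 0.0098 over all genes, and 0 passed. The intervals of all 14 lay inside a 1.5-fold change of CPM + 1. For genes near 1 CPM, such as SHH and FOXJ1, that bound allows a larger change of CPM. Several genes of the left-right pathway were close to 0: LEFTY2, a Nodal antagonist, averaged 0.00986 CPM over the 14 libraries, NKX3-2 0.0213 CPM and SNAI1 0.00635 CPM. NODAL, LEFTY1 and CER1 were not analysed here. SHH, the ligand that acts on the left of the chick node, averaged 1.15 ± 0.189 CPM in L and 1.06 ± 0.219 CPM in R (0.06). Of the activin receptor genes, whose products also receive Nodal signals, ACVR2A averaged 39.3 ± 2.01 CPM in L and 38.3 ± 3.37 CPM in R (0.04), and ACVR2B 8.33 ± 1.03 CPM in L and 8.57 ± 0.941 CPM in R (-0.04).

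Among the cilia genes of that list, 1 had an unadjusted p under 0.05. It was the only such gene of the 14 tested, where 1.72% of all 11005 genes had such a p. FOXJ1, the factor that switches on motile cilia, had 0.991, 1.41 and 1.72 CPM in L and 0.571, 0.930 and 1.31 CPM in R (lowest, median and highest). All 6 L values lay above the R median, with overlap, and the log2 difference was 0.30 (95% interval 0.07 to 0.53, unadjusted p = 0.0124, adjusted p = 1.00). RFX3, which works with FOXJ1 in ciliogenesis, averaged 55.3 ± 2.35 CPM in L and 55.3 ± 4.48 CPM in R (0.00). The dynein heavy chain genes DNAH9 and DNAH11, which power motile cilia, stood at 0.08 and 0.02, the intraflagellar transport gene IFT88 at -0.11, the inversin gene INVS at 0.00 and the cilia calcium channel gene PKD2 at -0.13.

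None of the genes that pattern the retina within each eye passed either. Of 38 listed, 34 were in the table and 20 were tested. Of these 0 had an unadjusted p under 0.05, and the median difference was 0.031. The intervals of all 20 lay inside a 1.5-fold change of CPM + 1. The guidance receptor EPHA3, graded from temporal to nasal retina in the chick, averaged 32.5 ± 0.762 CPM in L and 33.2 ± 1.11 CPM in R (-0.03; 95% interval -0.12 to 0.05). EPHB2, a ventral receptor, averaged 75.1 ± 9.13 CPM in L and 71.9 ± 7.23 CPM in R (0.06), and its dorsal ligand EFNB1 4.87 ± 0.431 CPM in L and 4.41 ± 0.573 CPM in R (0.12). The retinoic acid synthesising enzymes ALDH1A1 and ALDH1A3 stood at 0.03 and -0.11. TBX5 and FOXD1, regulators of the dorsal and the temporal retina in the embryo, were below the filter, with means of 0.822 and 0.303 CPM.

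**Figure D3:**
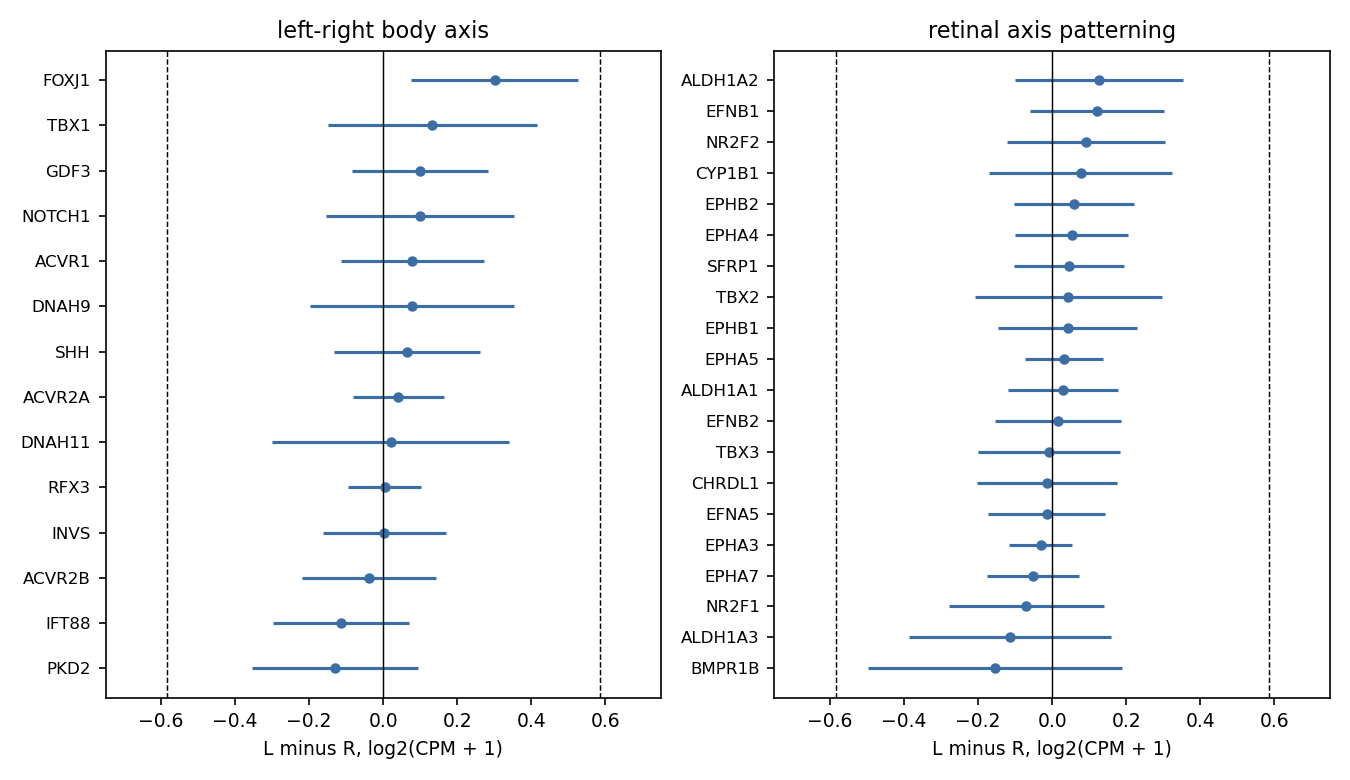
L minus R difference on the log2(CPM + 1) scale, with its 95% interval, for the 14 tested genes of the left-right body axis and the 20 tested genes of retinal axis patterning. Dashed lines mark a 1.5-fold difference in CPM + 1. All 34 intervals lie between them, and the interval of FOXJ1 is the 1 that leaves out 0.

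None of the opsins and genes of the light response passed between L and R. Of 35 tested genes of opsins and phototransduction, 0 had an unadjusted p under 0.05, with a median difference of -0.020. The intervals of 33 lay inside a 1.5-fold change of CPM + 1. The difference of greatest size was that of RGR, an opsin of the pigment epithelium and Mueller glia, with 0.268, 2.40 and 8.12 CPM in L and 0.899, 1.78 and 2.92 CPM in R (lowest, median and highest; 0.35, 95% interval -0.29 to 0.99); it was named after its values were seen. The cone phosphodiesterase PDE6C averaged 243 ± 19.9 CPM in L and 253 ± 20.54 CPM in R, and melanopsin (OPN4) 100.3 ± 11.7 CPM in L and 104 ± 10.6 CPM in R. The red cone opsin OPN1LW had a wider spread, at 80.6 ± 14.01 CPM in L and 78.3 ± 28.5 CPM in R. SAG, rod arrestin and the member of smallest p, averaged 228 ± 25.9 CPM in L and 248 ± 32.1 CPM in R (-0.12, unadjusted p = 0.170).

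Of 23 tested clock and melatonin genes, 10 dopamine genes, 38 heat shock and unfolded protein genes, 30 glycolysis and hypoxia genes, 23 cholesterol synthesis genes, 22 extracellular matrix genes and 67 cytosolic ribosomal protein genes, 0 had an unadjusted p under 0.05. Their members of smallest p were AANAT, which makes melatonin's precursor (0.15), the dopamine receptor DRD1 (0.06), the chaperone calnexin, CANX (0.08), the lactate dehydrogenase LDHA (-0.07), mevalonate kinase, MVK (0.13), the collagen COL5A1 (0.21) and RPL31 (0.11). The dopamine receptor DRD4, much studied in defocus, averaged 28.6 ± 3.80 CPM in L and 28.8 ± 3.84 CPM in R.

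A few listed genes had an unadjusted p under 0.05 and none passed. JUN, an immediate early transcription factor, averaged 6.32 ± 0.842 CPM in L and 5.58 ± 0.762 CPM in R (0.15, unadjusted p = 0.0342). The growth factor IGF2 had 8.84, 10.7 and 12.9 CPM in L and 7.82, 8.79 and 14.4 CPM in R (lowest, median and highest; 0.20, unadjusted p = 0.0378), and the highest R value, of lens library 1, lay above all L values. CCNA2, a cyclin of dividing cells, averaged 2.17 ± 0.592 CPM in L and 2.60 ± 0.435 CPM in R (-0.20, unadjusted p = 0.0320), while TYMS, which makes thymidylate for DNA synthesis, averaged 5.92 ± 0.620 CPM in L and 5.26 ± 0.360 CPM in R (0.14). Of 9 tested interferon and innate immune genes 3 had such a p, where 1.72% of all genes did, and the median of the 9 was -0.0091: IFIT5 and ZNFX1, an RNA sensor, at -0.54 and -0.45, and PARP9, an interferon-induced gene, at 0.22. TYMS, ZNFX1 and PARP9 were named after their values were seen. The counts of such p-values depended on the scaling. With median-of-ratios and with trimmed-mean scaling the interferon list had 0 higher and 2 lower, and so did the cell division list. The neuropeptide and defocus list, which holds IGF2, then had 0 and 0. After quantile normalization these 3 lists had 0 and 2, 0 and 1, and 1 and 0.

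The summed markers of each retinal cell type overlapped between L and R; in bulk tissue, fewer cells of a type and less RNA per cell cannot be told apart. For photoreceptor, bipolar, horizontal, amacrine, ganglion, Mueller glia and oligodendrocyte markers, 0 tested members had an unadjusted p under 0.05. The summed photoreceptor markers (14 genes) ran from 1557 to 1794 CPM in L and 1536 to 1896 CPM in R, those of ganglion cells (18 genes) from 318 to 363 CPM in L and 308 to 350 CPM in R, and those of Mueller glia (13 genes) from 1359 to 1739 CPM in L and 1266 to 1734 CPM in R. The members of smallest p included MAFA (0.13), PROX1 (0.05), GAD2 (0.05), EBF3 (0.12), SOX2 (0.17) and ENPP2 (-0.07).

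Markers of tissue that a dissection can carry along were low on both sides. The 16 pigment epithelium markers summed to 35.9 to 51.6 CPM in L and 36.0 to 47.4 CPM in R. Of them RPE65, the isomerase of the visual cycle, had 1.77, 2.51 and 7.04 CPM in L and 1.23, 1.67 and 2.99 CPM in R (lowest, median and highest; 0.44, unadjusted p = 0.04996), and lens library 4 (L) held both the highest RPE65 and the highest sum. The 15 microglia and leukocyte markers summed to 5.87 to 8.60 CPM in L and 5.64 to 10.8 CPM in R, and the microglial receptor CSF1R averaged 2.96 ± 0.654 CPM in L and 3.88 ± 0.932 CPM in R (-0.29, unadjusted p = 0.0399). Only 2 of the 15 were tested, and the other stood at 0.05, higher in L. The median leukocyte sum was 7.49 CPM in L and 8.79 CPM in R. NMI, IFIT5 and CTSC, which are not among the listed markers, also had lower means in L. The part of such cells in those values was not tested. Lens and ciliary body markers (17 genes, CRYBA1 at -0.11) summed to 22.4 to 29.7 CPM in L and 22.6 to 26.7 CPM in R, and vessel markers (18 genes, PECAM1 at 0.17) to 51.0 to 71.2 CPM in L and 55.3 to 62.8 CPM in R. Of 13 listed red blood cell markers only 2 were in the table and 0 were tested, and 1 of the 2 stood at the floor in every library. The 2 summed to at most 0.0462 CPM in L and 0.0731 CPM in R, which says little of blood.

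Within lens retinas and within control retinas, the letters also gave 0 calls. The unadjusted p was under 0.05 for 220 of the 11005 genes between L and R lens retinas, for 328 (2.98%) between L and R control retinas and for 357 (3.24%) in the difference of these 2 contrasts. Without lens library 13 (L) the lens contrast gave 595 genes and without lens library 4 (L) 438, and the difference of the contrasts gave 588 and 576. COCH, an extracellular matrix protein best known from the inner ear, was among the leading genes in lens retinas, with 8.53, 10.5 and 10.02 CPM in lens L retinas and 9.14, 4.89, 2.88 and 4.27 CPM in lens R retinas (0.82, 95% interval 0.36 to 1.29, adjusted p = 1.00). Lens library 1 (R) lay within the L range and the other three R libraries well below. RPP30, a subunit of ribonuclease P, had 2.16, 2.43 and 2.40 CPM in lens L retinas and 3.27, 3.60, 3.05 and 3.62 CPM in lens R retinas (-0.40), with no overlap. RPP30 was picked by its small p, and the share of all genes without overlap in groups this small is not given. The rest of the 5 genes of smallest p in that contrast were LOC429800 (-0.79), LOC112530339 (-0.54) and LOC101751536 (0.59).

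In control retinas, CXCL14, a chemokine, had 22.2, 25.4 and 30.6 CPM in L and 16.1, 12.1, 19.1 and 20.2 CPM in R (0.61, 95% interval 0.28 to 0.95, adjusted p = 0.999). OXSR1, a kinase that responds to osmotic stress, had 9.98, 13.4 and 9.83 CPM in L and 15.9, 15.4, 14.6 and 15.5 CPM in R (-0.44). Neither gene's control groups overlapped, but both genes were picked by small p, and no share over all genes is given beside this. The splicing kinase gene CLK4 stood at 0.42, LOC101751990 at -0.90 and LOC101748722 at -0.53. The difference of the L minus R contrast between lens and control retinas had its smallest p for MMRN1, an adhesive protein of platelets and endothelium. It had 2.69, 1.44 and 1.58 CPM in lens L retinas and 0.330, 0.586, 0.325 and 1.75 CPM in lens R retinas, but 0.322, 0.449 and 0.258 CPM in control L retinas and 2.78, 1.29, 1.80 and 0.613 CPM in control R retinas (difference 1.73, SE 0.393, adjusted p = 1.00). Next came EDARADD (-0.73), PMP2 (1.06), RNF34 (-0.43) and GOLGA5 (-0.47).

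The study's own contrast, lens against control, was then taken within each letter. In L retinas 844 genes (7.67%) and in R retinas 885 genes (8.04%) had an unadjusted p under 0.05, with 0 called in either; without lens library 13 the L count was 1849, without control 19 481 and without lens library 2 484. The groups of these 2 contrasts share no library, and each has its own controls. Both contrasts came from the same fit, with a shared estimate of the spread and a shared sex term, so they are not independent tests. NFIL3, a repressor with a daily rhythm, on chromosome Z, had 27.1, 24.9, 29.2 and 28.5 CPM in lens R retinas and 15.98, 17.8, 14.7 and 17.9 CPM in control R retinas. In L retinas it had 21.6, 19.8 and 27.7 CPM with a lens and 18.4, 20.7 and 20.3 CPM in controls. The R groups lay far apart and the L groups overlapped. NFIL3 was picked by its small p, and the share of all genes so separated is not given. The log2 difference was 0.69 in R (SE 0.0998, adjusted p = 0.0553) and 0.19 in L (95% interval -0.06 to 0.44). The R difference of NFIL3 passed with a filter of 5 CPM (adjusted p = 0.0463), with robust variance (0.0441) and with library weights (0.00800). It did not pass with median-of-ratios scaling, trimmed-mean scaling, quantile normalization, a pseudocount of 0.25 or no filter. The difference between the letters, -0.50 (SE 0.155), had an unadjusted p of 0.00557 and an adjusted p of 1.00.

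The clock genes ARNTL and PER2 passed in neither letter. For lens against control, ARNTL, the activator of the clock, stood at 0.42 in L (SE 0.141) and at 0.66 in R (SE 0.119, adjusted p = 0.214), and the repressor PER2 at -0.38 in L and -0.43 in R. ARNTL had 27.6, 18.8 and 25.7 CPM in lens L retinas and 14.95, 22.4 and 11.6 CPM in control L retinas, which overlapped. The sexes are not balanced between these L groups. Female L retinas had 27.6 and 25.7 CPM with a lens and 22.4 CPM in the control. Male L retinas had 18.8 CPM with a lens and 14.95 and 11.6 CPM in controls. PER2 had 152, 207 and 204 CPM in lens L retinas and 247, 228 and 279 CPM in control L retinas; it had 165, 151, 201 and 198 CPM in lens R retinas and 214, 251, 247 and 251 CPM in control R retinas. Within each letter no lens value of PER2 reached a control value, a separation whose share over all genes is not given. Of the 23 tested clock and melatonin genes, 1 was higher and 3 lower at an unadjusted p under 0.05 in L (3.43% and 4.24% of all genes tested), and 4 were higher and 3 lower in R (5.37% and 2.67%). The split over all genes in R, 591 higher and 294 lower as deposited, was 375 and 426 with median-of-ratios scaling, 366 and 430 with trimmed-mean scaling and 396 and 442 after quantile normalization; the clock and melatonin list then had 3 higher and 3 lower, 3 and 3, and 4 and 4.

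COL9A3, a collagen chain, had 7.91, 8.56 and 8.86 CPM in lens L retinas and 3.99, 3.98 and 5.58 CPM in control L retinas (0.78, SE 0.157, adjusted p = 0.626), and differed by 0.48 in R (SE 0.133). COCH differed by 1.05 in L (SE 0.237), where control values were 4.18, 3.70 and 3.95 CPM, and by 0.08 in R (95% interval -0.34 to 0.51), where they were 5.38, 3.94, 4.62 and 4.47 CPM. The difference of COCH between the letters was 0.97 (unadjusted p = 0.00714, adjusted p = 1.00). The leading genes in L also held AIG1 (0.57), LOC107055605 (-1.22) and LOC101751262 (-0.56). In R they held MCF2L2, an exchange factor for small GTPases (0.42), ANKFN1 (-0.61) and BDH1A (-0.53).

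No cholesterol synthesis gene passed between lens and control in either letter. Of 23 tested members, 12 were higher and 0 lower at an unadjusted p under 0.05 in R retinas, where 5.37% of all genes were higher, and 0 were higher and 1 lower in L retinas. HMGCS1, which makes the HMG-CoA of the pathway, had 95.4, 79.0, 64.4 and 66.6 CPM in lens R retinas and 51.3, 56.0, 57.7 and 55.8 CPM in control R retinas (0.44, SE 0.123). In L it had 95.8, 61.8 and 63.5 CPM with a lens and 62.0, 61.8 and 73.9 CPM in controls (0.07, SE 0.145). HMGCS1 was named after its values were seen. In the test of the difference between letters, 0 of the 23 had an unadjusted p under 0.05; HMGCS1 stood at -0.37 (SE 0.190). The cholesterol synthesis count in R was 6 without lens library 1 or without control 23 and 7 without control 21; it was 10 with median-of-ratios and with trimmed-mean scaling and 9 after quantile normalization, again with 0 lower. The higher count over all 11005 genes in R also moved, from 591 with all libraries. It was 409 without lens library 1, 469 without control 23 and 539 without control 21. With the scalings it was 375, 366 and 396, in the order given.

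**Figure D4:**
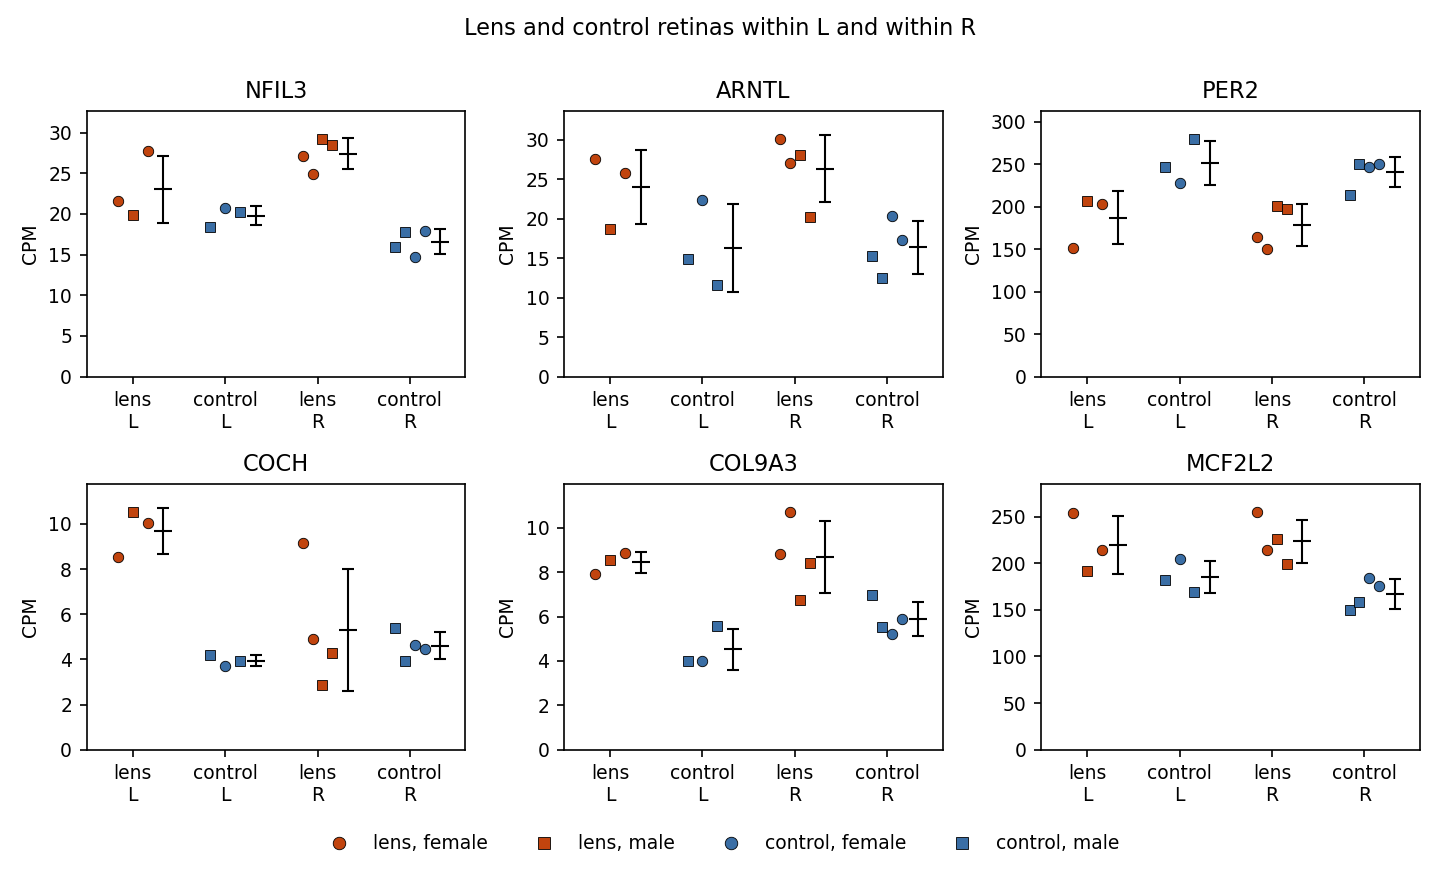
CPM in each library of 6 genes, with lens L, control L, lens R and control R retinas in order from the left. Orange marks lens wear, blue control, circles female and squares male; bars are the mean ± SD. NFIL3 is at 24.9 to 29.2 CPM in lens R against 14.7 to 17.9 CPM in control R retinas, while its L groups overlap. COCH is above all L controls in each lens L retina. Both genes were picked by small p, and the share of all genes so separated is not given.

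Within each sex the letters again gave 0 calls, but more genes had small p-values. The unadjusted p was under 0.05 for 585 genes (5.32%) between female L and R retinas, 889 (8.08%) between male L and R retinas and 1327 (12.1%) for the difference between the sexes. Most had lower means in L in females (149 higher and 436 lower, 1.35% and 3.96%) and higher means in L in males (775 higher and 114 lower, 7.04% and 1.04%). With median-of-ratios scaling the splits were 260 higher and 313 lower in females and 510 higher and 296 lower in males. For the difference, female minus male, they were 219 and 1108 as deposited and 530 and 710 with that scaling. Single L libraries moved these counts: without lens library 4, the 1 male L retina with a lens, there were 436 in males and 728 for the difference, and without lens library 13 there were 293 in females and 868 for the difference. Without lens library 2 the female count was 928. Among male lens retinas the letter also follows the 2 sets of lens numbers, with 4 in L and 12 and 14 in R. Among female lens retinas it does so only in part, with 2 and 13 in L and 1 and 3 in R. With the number sets in place of lens wear the counts were 467 in females, 832 in males and 888 for the difference.

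GUCA1A, which activates the guanylate cyclase of photoreceptors, had the smallest p in females and for the difference between the sexes. It had 60.4, 52.9 and 49.97 CPM in female L retinas (numbers 2, 13 and 19) and 78.4, 84.3, 83.7 and 67.3 CPM in female R retinas (1, 3, 21 and 23). In males it had 82.3, 79.4 and 72.8 CPM in L (4, 17 and 22) and 60.1, 75.4, 61.3 and 63.2 CPM in R (12, 14, 10 and 18). The female groups did not overlap, and the male groups overlapped through number 14. The share of all genes without overlap within a sex is not given. The L minus R difference was -0.54 in females (SE 0.0868, adjusted p = 0.171) and 0.29 in males (SE 0.0868), and the difference between the sexes -0.82 (SE 0.124, adjusted p = 0.0743). That difference passed with robust variance (adjusted p = 0.0474). The summed photoreceptor markers ran from 1557 to 1686 CPM in female L and 1743 to 1896 CPM in female R retinas, with no overlap, and from 1687 to 1794 CPM in male L and 1536 to 1756 CPM in male R retinas; their part in these values was not tested. The GUCA1A difference between the sexes was -0.75 with median-of-ratios scaling (adjusted p = 0.219) and -0.77 with the number sets in place of lens wear (adjusted p = 0.253).

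ARR3, the arrestin of cones, had 180, 145 and 202 CPM in female L retinas and 218, 237, 269 and 254 CPM in female R retinas (-0.46, adjusted p = 0.877). In females PTGS2, the inducible cyclooxygenase, stood at -0.40 and ZCCHC4 at -0.73. The noncoding share of the summed CPM was 6.31%, 6.89% and 6.97% in female L retinas and 5.82%, 6.13%, 7.42% and 6.10% in female R retinas. Its part in these values was not tested. In males MACF1, which links actin to microtubules, had 116, 74.1 and 77.0 CPM in L and 71.9, 69.5, 56.5 and 59.3 CPM in R (0.48, adjusted p = 0.331), with lens library 4 far above the rest. PITPNM2, a phosphatidylinositol transfer protein, stood at 0.52 in males, the sterol transporter ABCG4 at 0.42, ZBTB37 at 0.32 and the zinc finger factor CASZ1 at 0.51. For the difference between the sexes, KSR1, a scaffold of the MAP kinase pathway, stood at -0.50, LOC107050378 at -1.27, PITPNM2 at -0.80 and ZBTB37 at -0.50 (adjusted p = 0.136 each). With the number sets PITPNM2 stood at -0.63.

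In the female minus male difference, 10.1% of all genes were lower and 1.99% higher at an unadjusted p under 0.05, and the median over all genes was -0.058. The 8 lists with 20 or more tested members are given against that; no member passed. Of glycolysis and hypoxia 10 of 30 were lower, of opsins and phototransduction 8 of 35 were lower and 1 higher, and of clock and melatonin 8 of 23 were lower (medians -0.24, -0.14 and -0.24). Of cytosolic ribosomal proteins 7 of 67 were higher and 0 lower (median 0.13), and of heat shock and unfolded protein genes 2 of 38 were higher and 1 lower (0.091). Of extracellular matrix genes 4 of 22 were lower and 1 higher, of cholesterol synthesis 3 of 23 and of retinal axis patterning 2 of 20 were lower. Of the cell type markers, 4 of 14 for photoreceptors were lower (median -0.23; 10 of the 14 are also in the opsin and phototransduction list), and 2 of 7 for pigment epithelium (-0.29). Other markers were lower too: 3 of 15 for amacrine cells, 2 of 11 for Mueller glia and 1 of 7 for horizontal cells (-0.22). For ganglion cells 1 of 15 and for lens and ciliary body 1 of 6 were lower. For bipolar cells 2 of 12 were lower and 1 higher. Of 5 oligodendrocyte markers (-0.34), 3 vessel markers and 2 microglia and leukocyte markers, 0 were lower or higher. With median-of-ratios scaling the first 3 lists had 5 lower and 4 higher among opsins and phototransduction, 5 lower among clock and melatonin, and 6 lower and 2 higher among glycolysis and hypoxia. Without lens library 4 (L) the lower members numbered 5, 4 and 3, in that order, for these 3. The 10.1% over all genes does not hold for these settings. Over all 11005 genes, that scaling gave 710 lower and 530 higher. Without lens library 4 (L), 728 of all genes had such a p, and 127 of these were higher. The lactate dehydrogenase LDHA, for example, had 667, 653 and 637 CPM in female L retinas and 733, 738, 785 and 794 CPM in female R retinas, and 691, 762 and 791 CPM in male L retinas and 685, 665, 785 and 691 CPM in male R retinas (difference -0.28, SE 0.0820, adjusted p = 0.206). The female groups of LDHA did not overlap and the male groups did, with no share over all genes given beside this. LDHA was named in this contrast after its values were seen. The left-right body axis list, with 14 tested members, was below the size of the 8 lists. In this contrast 0 of the 14 were higher and 2 lower (median -0.13). Between male L and R retinas 4 were higher and 0 lower, where 7.04% of all genes were higher, and between female retinas 0 were either. In the lens minus control difference of the letters 0 were higher and 3 lower, where 248 of all 11005 genes were lower.

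**Figure D5:**
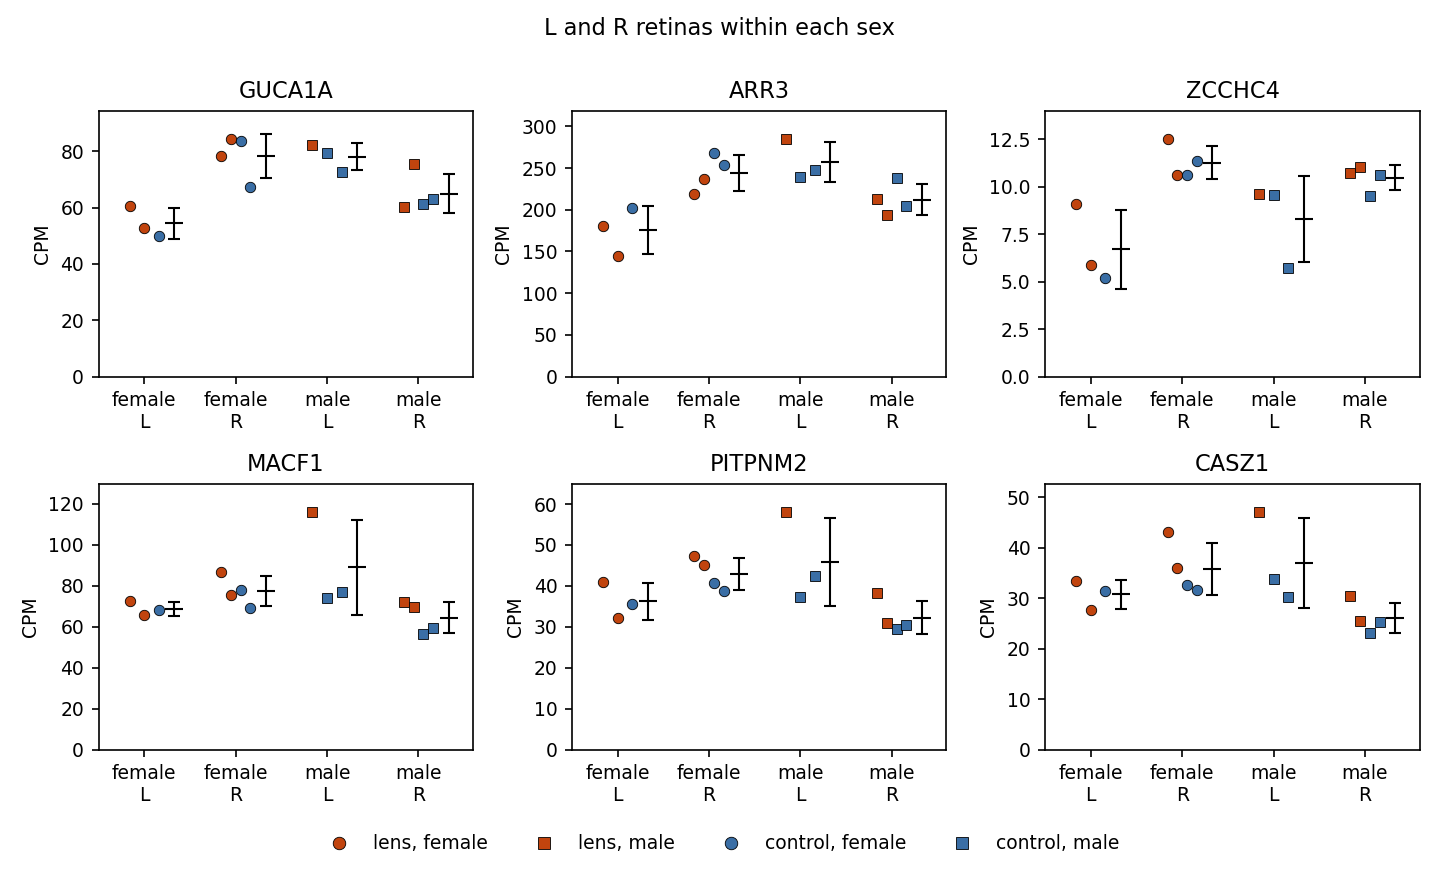
CPM in each library of 6 genes, with female L, female R, male L and male R retinas in order from the left. Orange marks lens wear, blue control, circles female and squares male; bars are the mean ± SD. GUCA1A is at 49.97 to 60.4 CPM in female L against 67.3 to 84.3 CPM in female R retinas, and at 72.8 to 82.3 CPM in male L against 60.1 to 75.4 CPM in male R retinas; MACF1, PITPNM2 and CASZ1 are highest in lens library 4 (male L).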

How the data were processed

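Per the submitters' processing notes, STAR, Partek and the build GRCg6a were used, with no role or version. The deposited table holds 18631 genes in 14 libraries. That the authors' unit is CPM was taken from the values: less a constant of 0.0001, values up to 20 steps were whole multiples of 1 step per library in 93.8% to 95.2% of cases (within 0.05 steps), so no count model was fitted. Columns sum to 29.9% to 31.9% of 1000000. The table held 0 columns of other series. The assignment of reads to genes and any use of strand are not given in the sources, so overlapping genes and paralogs are uncertain. Coordinates are those of the table.

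The 11005 genes averaging 1 CPM or more (7626 fell below) were fitted on log2(CPM + 1) with limma 3.58.1 in R 4.3.3 (two-sided, with a mean-variance trend; Benjamini-Hochberg adjustment over all genes tested, adjusted p under 0.05). The scale understates changes of low genes. The models held: letter, lens wear and sex; the 4 groups of letter and lens wear, with sex; and letter by sex, with lens wear. The method was run on simulated data with independent noise for each gene and library. Those data held no sex or number-set differences, so the run says little of the fit here. Letters came from the titles, and sex from W-linked genes. The groups and the 27 gene lists were chosen with earlier results of these data known. Named genes are the 15 of smallest p for the letter, axis genes with an unadjusted p under 0.05, the member of smallest p of every other list, and 5 of smallest p for each other comparison; any other gene was named after its values were seen. Alternatives covered the pseudocount (0.25), the filter (none; 5 CPM), 3 scalings, robust variance, library weights, chromosomes Z and W left out, the number sets, covariates, and each library left out. Sequences are not shown, and some genes that the rule names are not reported here.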

Additional observations from a re-analysis of the deposited data

Results flagged for a closer look

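In all, 5 values lay far from the rest of their group by Dixon's test among 160 groups tested, where chance flags about 1 in 20 groups. IGF2 was 14.4 CPM in lens library 1, against 7.82 to 9.74 CPM in the other R retinas. RPE65 was 7.04 CPM in lens library 4, against 1.77 to 3.17 CPM in the other L retinas. EBF3, a ganglion and amacrine cell factor, was 23.3 CPM in lens library 1, against 19.1 to 20.7 CPM in the other R retinas. OXSR1 was 12.3 CPM in lens library 14, against 14.7 to 14.9 CPM in the other lens R retinas. PITPNM2 was 38.3 CPM in lens library 12, against 29.5 to 30.8 CPM in the other male R retinas.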

How the results depend on the processing

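The L against R comparison over all libraries called 0 genes under every alternative run. Calls at an adjusted p under 0.05 appeared elsewhere. Lens against control in L gave 1 without a filter (LOC112531777). Lens against control in R gave 1 with a filter of 5 CPM, 1 with robust variance and 1 with library weights, each time NFIL3 (adjusted p = 0.0463, 0.0441 and 0.00800). The female minus male difference gave 1 with robust variance, GUCA1A (adjusted p = 0.0474). With libraries left out in turn, counts ran from 0 to 2 for lens against control in R, 0 to 3 for female minus male, and 0 to 1 each for L against R in females, L against R in controls and lens minus control; those calls were NFIL3 without lens 4, 13 or 3, MCF2L2 without lens 3, KMT2D, LOC107050378 and SEZ6 without control 17, GUCA1A without lens 14 or control 23, LPCAT1 without lens 13, and STS without control 22. The cause was not tested. The L minus R difference in read total ran from -0.956 to 2.12 M reads, in noncoding share from -0.219 to 0.0809 percentage points and in genes at 1 CPM from -18.1 to 57.7 when 1 library was left out. At an unadjusted p under 0.05 the letter gave 189 genes, 335 with number sets and 357 without lens libraries 1 to 4; the female minus male difference gave 1327 and 888 with number sets, both alternatives chosen after seeing the data. Among named genes and measures, 2014 alternative values kept their direction and side of the threshold, 11 crossed it and 6 changed sign. All 6 changes of sign were of library measures. The genes were picked by small p in these data and most lay far from the threshold, so keeping their side says little. The rank-sum setting took its differences from the main fit, so their direction could not change there. No paired analysis was possible because no title number occurs in more than 1 group. Genes near 1 CPM, such as FOXJ1 and IFIT5, rest on few reads, and 3 L retinas per treatment or sex limit the splits.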

Other observations

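On the log2(CPM + 1) scale of the fit, 7 genes stood at a 1.5-fold difference or more between L and R; they were picked by that size after the values were seen. By the group means in CPM 27 genes did, 23 of them averaging under 10 CPM, since the pseudocount understates the change of low genes. NEBL1 had 16.1, 33.6 and 74.2 CPM in L and 33.1, 74.8 and 207 CPM in R (lowest, median and highest; log2 difference -1.33, SE 0.437, unadjusted p = 0.00787). KCNA6, a voltage-gated potassium channel gene, had 34.2 to 106.7 CPM in L and 0.293 to 109.5 CPM in R (0.75, SE 0.734), and the lowest value was lens library 3. GBE had 12.6 to 64.3 CPM in L and 6.04 to 29.4 CPM in R (0.73), with the highest in lens library 4. LOC107054480 was at 30.9 CPM in lens library 4 and at most 0.0999 CPM in the other 5 L retinas, and ran from its listed floor of 0.0001 CPM to 32.3 CPM in R. LOC100858040 (0.85), LOC107049500 (0.64) and ZPBP (-0.66) were the others. The adjusted p of all 7 was 1.00.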
